A study of Mus musculus with 4 samples.

Results

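The red cell membrane and carbonic anhydrase genes examined here are 8 genes, Slc4a1, Rhag, Aqp1, Epb42, Ermap, Car1, Car2 and Hemgn. They were taken as every probe set of the array whose platform gene symbol is one of them, which gave 11 of the 45037 probe sets and 8 of the 18193 genes named in the table. Slc4a1 was read by 3 probe sets, Epb42 by 2 and each other gene by 1, and each probe set is shown separately. The study profiled CD11b+ cells of mouse spleen on 4 Affymetrix MOE430 2.0 arrays. Each array held the pooled RNA of 5 mice, with 2 pools from mice under repeated social threat (environment HighThreat) and 2 pools from control mice (environment LowThreat). The sources used here give no strain, age, sex or duration of exposure. A pool averages its mice, so the spread below is that between pools and not between animals.

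A mature red cell has no nucleus and works through its membrane and its cytosol. Slc4a1, the band 3 anion exchanger, trades bicarbonate for chloride and holds the spectrin skeleton to the membrane through ankyrin and the protein encoded by Epb42. Rhag forms the Rh complex with Rhd beside it, and Aqp1 is the water channel. Inside the cell, the carbonic anhydrases encoded by Car1 and Car2 convert CO2 to bicarbonate, which Slc4a1 then exports. Ermap is a membrane protein of the immunoglobulin superfamily found on erythroid cells, and Hemgn encodes a nuclear protein of blood progenitors that is prominent in the erythroid lineage. In the mouse, the spleen makes red cells in adult life, more so under stress. CD11b, the integrin chain encoded by Itgam, is a myeloid antigen and not one of erythroid cells.

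All 8 genes had at least 1 probe set that rose in the social threat pools, as did 10.6% of all genes. By the brightest probe set of each gene, 7 of the 8 rose, all but Epb42, against 9.4% of all genes. Of the 11 probe sets, 9 rose (81.8%), 0 fell and 2 were not called, against 7.09% of all probe sets called higher and 8.67% called lower. A probe set is called at an adjusted p under 0.05 in limma, with Benjamini-Hochberg adjustment over all 45037 probe sets, and "rose" and "fell" are used only of such calls. The fitted rises ran from 9.11-fold for Slc4a1 to 1.45-fold for Epb42. At least 2-fold rises were called for 8 member probe sets and for 1.21% of all probe sets. The pools of the groups did not overlap, with social threat higher, for all 11 member probe sets and for 24.1% of all probe sets. The median log2 difference was 1.94 over the 11 probe sets and -0.01 over all probe sets. The genes were grouped with earlier results of these data known, so these counts describe them and do not test them as a group. In bulk RNA, more cells of a type and more RNA per cell cannot be told apart.

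**Figure D1:**
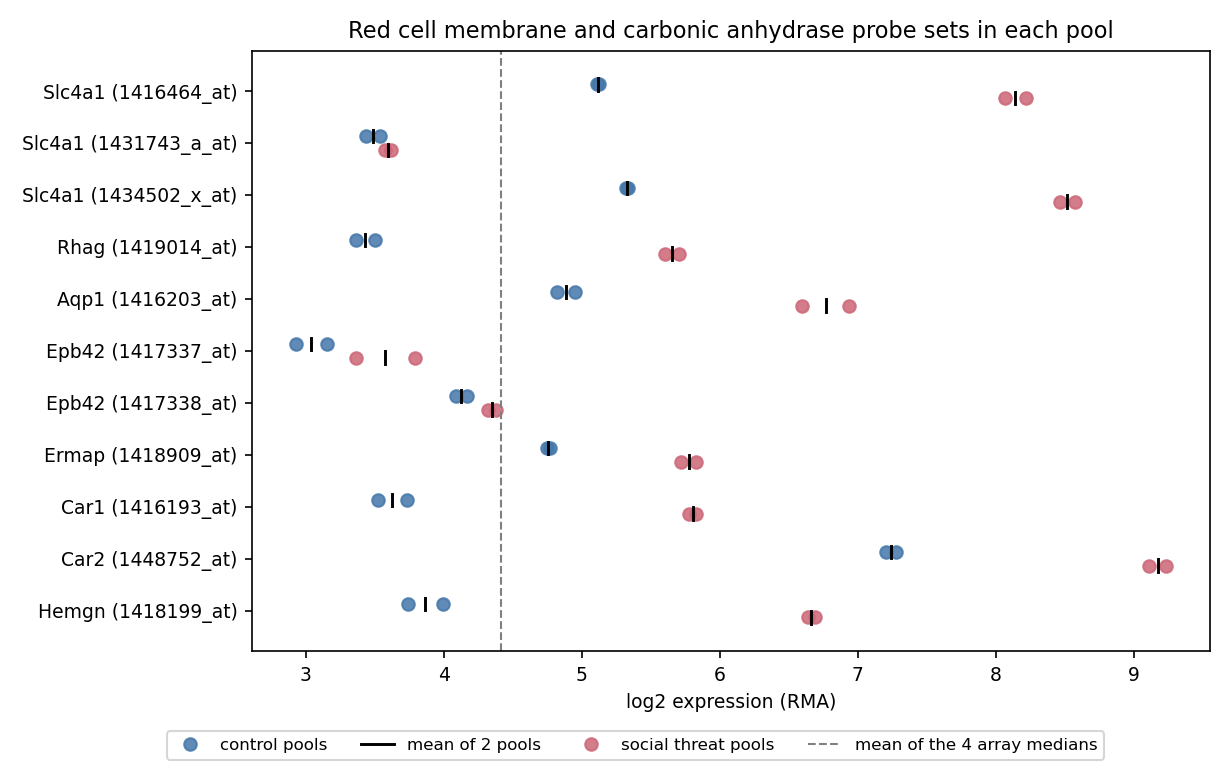
Each row is a probe set and the horizontal axis its log2 expression, with blue points for the 2 control pools, red points for the 2 social threat pools and black marks for the means. The red points lie to the right of the blue points in every row, widely so for Slc4a1, Hemgn, Rhag, Car1, Car2 and Aqp1, and narrowly for Epb42 and for the dimmest Slc4a1 probe set.

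Among the transport proteins, Slc4a1 differed most. Its probe set 1434502_x_at stood at 5.34 and 5.32 in the control pools and at 8.57 and 8.46 in the social threat pools. The groups lay 3.13 log2 units apart at their nearest pools, where pools of a group differed by at most 0.11. The log2 difference was 3.19 (SE 0.09, limma adjusted p = 9.41e-08). The probe set 1416464_at gave 5.11 and 5.13 in controls and 8.22 and 8.07 under social threat, a difference of 3.02 (SE 0.10, limma adjusted p = 1.83e-07). By log2 difference these probe sets ranked 16 and 17 among all 45037.

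The third Slc4a1 probe set, 1431743_a_at, read 3.54 and 3.44 in controls and 3.62 and 3.57 under social threat. Its groups stood 0.03 apart, and it was not called (log2 difference 0.11, 95% interval -0.13 to 0.34, limma adjusted p = 0.612). Its mean lay at or above those of only 31.4% of probe sets, a level that these values cannot separate from background. The probe sets of Slc4a1 therefore differ in their calls, and a probe set at this level cannot decide for or against a difference.

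Rhag, a channel-like membrane protein that carries ammonia and partners the Rh antigen, stood at 3.50 and 3.36 in controls and 5.60 and 5.71 under social threat. It rose by 2.22 (SE 0.12, limma adjusted p = 3.35e-06), with a gap of 2.10 between the groups. Aqp1, the water channel of red cells and also of endothelium, stood at 4.95 and 4.82 in controls and 6.60 and 6.94 under social threat. It rose by 1.88 (SE 0.14, limma adjusted p = 1.77e-05), and its social threat pools differed by 0.34, more than those of Rhag or Slc4a1. For both genes each social threat pool exceeded each control pool by more than any difference between pools of a group.

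Epb42, whose protein binds Slc4a1 on the inner face of the membrane, moved least. Its probe set 1417337_at read 3.15 and 2.93 in controls and 3.79 and 3.37 under social threat. The social threat pools differed by 0.42, about as much as the groups did, and the nearest pools of the groups were 0.21 apart. It was called at a log2 difference of 0.54 (SE 0.15, limma adjusted p = 0.0361). The call was lost without social threat pool 1 (log2 difference 0.33, adjusted p = 0.266), without control pool 2 (0.43, adjusted p = 0.141) and without the variance trend (adjusted p = 0.0998). Its second probe set, 1417338_at, read 4.17 and 4.09 in controls and 4.32 and 4.38 under social threat and was not called (log2 difference 0.22, 95% interval -0.05 to 0.49, limma adjusted p = 0.287). Both Epb42 probe sets stayed below the array medians of 4.41 to 4.43 in every pool.

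Ermap stood at 4.75 and 4.77 in controls and at 5.72 and 5.83 under social threat. It rose by 1.02 (SE 0.12, limma adjusted p = 0.000325), a 2.02-fold difference, with a gap of 0.95 between groups whose own pools differed by at most 0.11. Hemgn stood at 4.00 and 3.74 in controls and at 6.69 and 6.64 under social threat. It rose by 2.79 (SE 0.13, limma adjusted p = 1.1e-06), from a control level that background can set. The control pools were below the array median for Hemgn and above it for Ermap.

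Car1 and Car2 encode cytosolic carbonic anhydrases, of which Car2 is the faster enzyme and is made in many tissues, while Car1 is most abundant in red cells. Car1 stood at 3.52 and 3.73 in controls and at 5.83 and 5.78 under social threat. It rose by 2.18 (SE 0.13, limma adjusted p = 4.54e-06). Car2 stood at 7.28 and 7.20 in controls and at 9.23 and 9.11 under social threat, and rose by 1.93 (SE 0.08, limma adjusted p = 5.09e-07). The 95% intervals of the differences, 1.89 to 2.47 for Car1 and 1.76 to 2.11 for Car2, overlapped. Within its own scale Car2 was the brightest member in controls, at or above 76.8% of all probe sets, where Car1 lay at or above 34.1%.

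Of the 11 member probe sets, 6 had a control mean under the array median, namely those of Rhag, Car1, Hemgn and Epb42 and the uncalled one of Slc4a1. RMA compresses differences at that level, so the folds of Rhag, Car1 and Hemgn rest on control values that background can set. The best measured size is that of Car2, whose control mean lay 2.82 log2 units above the array median. The called Slc4a1 probe sets lay only 0.70 and 0.91 above it, Aqp1 0.47 and Ermap 0.34. The same limit can therefore apply to their sizes. Among members above the array median in controls, the log2 differences ran from the called Slc4a1 probe sets through Car2 and Aqp1 to Ermap. The 95% intervals of Car2 (1.76 to 2.11) and Aqp1 (1.57 to 2.19) overlapped. That of Ermap (0.75 to 1.28) lay below both and those of Slc4a1 (2.79 to 3.25 and 2.98 to 3.40) above both. The intervals measure the spread between pools within a probe set. They do not cover compression at low levels, so they do not rank the true sizes of the rises.

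**Figure D2:**
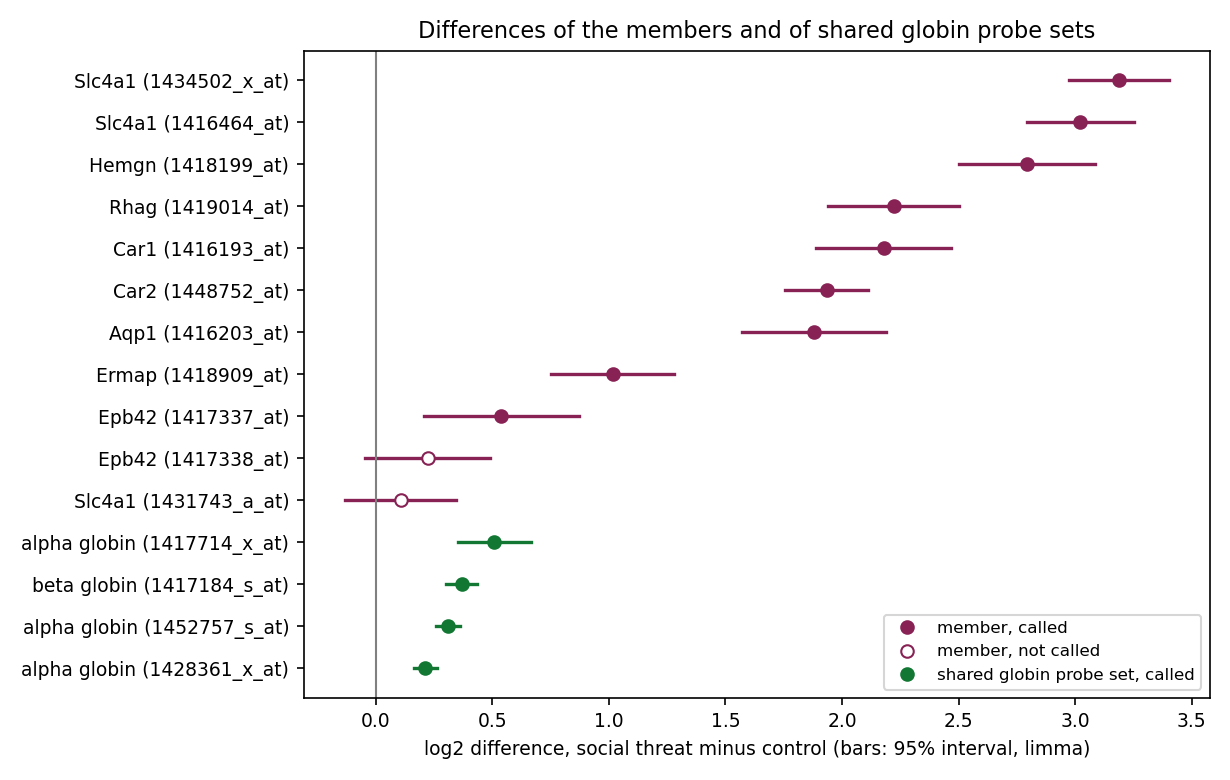
The horizontal axis is the log2 difference of social threat minus control, with points for the estimate and bars for limma's 95% interval. Filled points are called, open points are not called. The members spread from 0.11 to 3.19, and 4 bright probe sets shared by globin genes (green) lie between 0.21 and 0.51.

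Haemoglobin transcripts, the bulk of the RNA of late erythroid cells, were already bright in controls. A probe set shared by the beta globin genes stood at 12.31 and 12.38 in controls and 12.71 and 12.72 under social threat, a rise of 0.37 (SE 0.03, limma adjusted p = 3.03e-05). For the 3 called probe sets shared by Hba-a1 and Hba-a2 the rises were 0.21, 0.31 and 0.51. The globin folds were 1.16 to 1.42, and 3 of these 4 probe sets had means at or above those of 99.5% or more of all probe sets. Saturation at that brightness was not tested, and these folds are therefore not ranked against those of the members. The shared globin probe sets were chosen after their values were seen.

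RefSeq promoter sequences (GRCm38.p6) were matched for 5 of the 8 genes, Rhag, Aqp1, Epb42, Ermap and Hemgn, and not for Slc4a1, Car1 and Car2. The 250 bases before the start were searched on both strands for AGATAA and TGATAA, core sequences bound by GATA factors, and for CCNCNCCC, the kind of sequence bound by the erythroid factor KLF1. AGATAA or TGATAA was found in 4 of the 5 windows and in 16.6% of the 32851 windows of the table. TGATAA alone was found in those of Rhag, Ermap and Hemgn and in 7.94% of all windows. Of the member windows, 2 held CCNCNCCC, as did 45.9% of all windows, and in Hemgn its matches overlapped one another within a run of G. The windows of the TGATAA genes are shown with that of Aqp1, which held neither GATA sequence, 5′ to 3′ on the gene's strand. Capitals mark the matches, which read TTATCA where TGATAA lies on the opposite strand.
Rhag, chr17:40810899-40811148, plus strand: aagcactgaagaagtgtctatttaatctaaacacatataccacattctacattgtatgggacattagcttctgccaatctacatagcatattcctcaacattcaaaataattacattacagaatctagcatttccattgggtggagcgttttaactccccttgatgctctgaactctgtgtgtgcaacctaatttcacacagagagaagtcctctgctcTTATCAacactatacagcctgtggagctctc
Ermap, chr4:119189996-119190245, minus strand: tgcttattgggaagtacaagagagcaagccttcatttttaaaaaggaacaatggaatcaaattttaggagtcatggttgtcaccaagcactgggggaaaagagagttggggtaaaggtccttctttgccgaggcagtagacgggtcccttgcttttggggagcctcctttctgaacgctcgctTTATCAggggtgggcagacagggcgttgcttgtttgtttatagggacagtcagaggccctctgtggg
Hemgn, chr4:46404184-46404433, minus strand: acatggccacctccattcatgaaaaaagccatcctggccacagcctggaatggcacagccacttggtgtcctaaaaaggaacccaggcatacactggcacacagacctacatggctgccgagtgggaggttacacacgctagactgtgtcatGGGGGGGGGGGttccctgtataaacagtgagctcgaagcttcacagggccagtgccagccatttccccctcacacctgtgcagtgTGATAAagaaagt
Aqp1, chr6:55336049-55336298, plus strand: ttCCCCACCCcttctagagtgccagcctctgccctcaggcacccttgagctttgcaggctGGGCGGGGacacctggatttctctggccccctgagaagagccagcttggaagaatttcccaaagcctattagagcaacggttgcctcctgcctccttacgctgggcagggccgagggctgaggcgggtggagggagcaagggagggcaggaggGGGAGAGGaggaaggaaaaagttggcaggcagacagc

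The TGATAA match lay closest to the start in Hemgn, from base -13 to -8, followed by Rhag at -31 to -26 and Ermap at -67 to -62. The Epb42 window held AGATAA at -226 to -221 on the opposite strand. G and C made up 62.0% of the Aqp1 window and between 39.2% and 54.4% of the other windows. These matches describe letters in the windows and are not measured binding sites.

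Other genes of the red cell membrane and skeleton went both ways. Of 26 listed genes, 23 were analysed here, each by its brightest probe set. Of those, 7 rose (30.4%) and 5 fell (21.7%), against 9.4% and 11.7% of 18193 genes by the same rule, and the median log2 difference was 0.16 against -0.02 for all genes. Cldn13, a claudin of mouse erythroid cells, rose by 1.14 (SE 0.14, limma adjusted p = 0.000457), from 3.79 ± 0.01 to 4.93 ± 0.23 (SD, n = 2). Rhd, the partner of Rhag, rose by 1.13 (SE 0.11, limma adjusted p = 0.00014), from 4.88 and 4.81 to 5.98 and 5.97. Kel, the Kell blood group protein, rose by 0.93 (SE 0.12), from 3.46 and 3.62 to 4.56 and 4.39. Slc14a1, the urea transporter of red cells, moved the other way and fell by 0.86 (SE 0.14, limma adjusted p = 0.00291).

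Ankyrin and spectrin, to which Slc4a1 is tied, were read by Ank1 and Sptb. Ank1, ankyrin of red cells, stood at 5.42 and 5.44 in controls and 5.75 and 5.83 under social threat and was not called (log2 difference 0.36, 95% interval 0.11 to 0.62, limma adjusted p = 0.061). Sptb, the beta spectrin, stood at 4.91 and 4.94 in controls and 4.83 and 4.92 under social threat. It differed by -0.05 and was not called (limma adjusted p = 0.866). Its control mean lay only 0.51 above the array median, where background can still weigh. The other Sptb probe set, at 4.40 in controls, differed by 0.08 and was not called. Ank1 and Sptb were singled out after their values were seen. The remaining rises were of genes that leukocytes also express, Add1 by 0.48, Cd47 by 0.30, Stom by 0.23 and Mpp1 by 0.19, as were the falls of Gypc, Tspan33, Kcnn4 and Aqp9, by 0.67, 0.65, 0.40 and 0.24.

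Of 14 other carbonic anhydrase genes, 0 were called in limma by their brightest probe set, where 9.4% of all genes rose and 11.7% fell, with differences between -0.32 and 0.24 and 12 of the 14 under the array median in controls. At an unadjusted p under 0.05 there was 1, Car9, which was also called lower (adjusted p = 0.0388) when genes were tested as the mean of their probe sets. Car9 has 1 probe set, so its difference was the same in both fits, with SE 0.12 over probe sets and 0.09 over genes. In the genome annotation Car1 and Car2 lie in a cluster with Car13 and Car3 on chromosome 3, in the order Car13, Car1, Car3 and Car2. Car3, between the members, stood at 3.57 and 3.65 in controls and 3.62 and 3.47 under social threat, a difference of -0.07 (95% interval -0.32 to 0.18). Car13 differed by -0.02 (95% interval -0.31 to 0.28). Car9 and Car15, with the brightest probe sets among these 14 genes, differed by -0.32 and -0.23. The dimmer Car14 and Car7 differed by -0.07 and 0.10. By probe set none of them was called. Both neighbours were named after their values were seen.

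Of 19 measured relatives of the transporters (other Slc4 members, Rhbg, Rhcg and aquaporins other than Aqp9), 0 rose and 1 fell, again against 9.4% and 11.7% of all genes. In controls 13 of the 19 were under the array median, a level that cannot be separated from background. For those genes the lack of a call does not show an unchanged level. The relatives Rhd, which rose, and Aqp9, which fell, were counted with the red cell membrane genes. Slc4a8, a sodium-dependent bicarbonate transporter, fell by 0.65 (SE 0.12, limma adjusted p = 0.00425), with adjusted p = 0.0828 without social threat pool 1. No other Slc4a8 probe set was called, with log2 differences from -0.06 to 0.14. Their control means of 3.03 to 4.66 were near or under the array median, against 6.22 for the called probe set. At that level they cannot decide for or against its fall, which therefore rests on a single probe set. Slc4a2, the widely expressed anion exchanger, stood at 7.26 ± 0.05 in controls and 7.50 ± 0.04 under social threat (SD, n = 2). It was not called (log2 difference 0.24, SE 0.09, limma adjusted p = 0.104). With genes tested as the mean of their probe sets it was called (SE 0.06, limma adjusted p = 0.0281). Slc4a2 has 1 probe set, so its difference was the same in both fits. Aqp12 and Aqp2 differed by 0.13 and -0.03 and were not called.

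**Figure D3:**
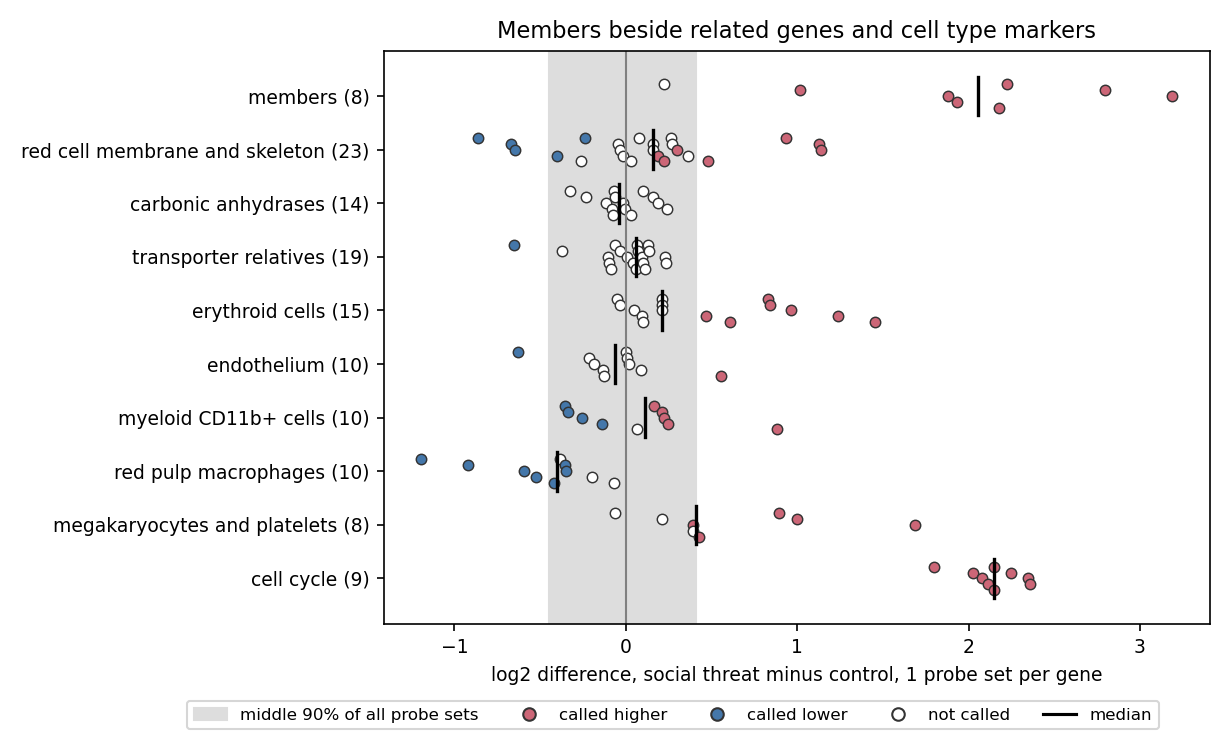
Each point is a gene, shown by its brightest probe set at its log2 difference of social threat minus control, with the number of genes in each list in brackets, red for called higher, blue for called lower and black bars for medians. The grey band spans the middle 90% of all probe sets, from -0.45 to 0.41. The members (median 2.06) lie to the right of the carbonic anhydrases and transporter relatives except for Epb42, at 0.22, which lies within their range. The cell cycle genes have a median of 2.15.

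Of 15 measured erythroid markers outside the member list, 7 rose (46.7%, against 9.4% of all genes), 0 fell and 8 were not called, with a median of 0.21. The summed level of the list (log2 of the sum of unlogged values) was 11.37 to 11.44 in control pools and 11.96 to 11.99 in social threat pools. Nfe2, the brightest of the list, weighs most in that sum, at 9.88 and 9.87 in controls and 10.86 and 10.81 under social threat. The rise of the sum therefore cannot be read as one of the whole list. Trim10, a gene of terminal erythroid differentiation, rose by 1.46 (SE 0.12), Klf1, the erythroid transcription factor gene, by 1.24 (SE 0.13), Nfe2 by 0.96 (SE 0.04) and Alas2, the erythroid enzyme of haem synthesis, by 0.84 (SE 0.08). Not called by their brightest own probe set were Gata1, Gfi1b, Epor, Tfrc, Bpgm, Fech, Hba-a1 and Hba-a2, with differences of -0.05 to 0.21. For Hba-a1 and Hba-a2 these are dim probe sets at 3.88 and 5.78 in controls, and the probe sets that both genes share, given above, rose. A dimmer pair of Fech probe sets was called higher. The erythroid list was written with earlier results of these data known.

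Other cell types and states also moved, and their part in the members' differences was not tested. By their brightest probe sets, 9.4% of all genes rose and 11.7% fell, and the counts below follow the same rule. All 9 measured cell cycle genes rose, by 1.80 to 2.36, with summed levels of 10.45 to 10.60 in controls and 12.65 to 12.69 under social threat. Bub1 rose by 2.36, Rrm2 by 2.35, Mki67 by 2.25 and Ube2c by 2.15. Of 8 megakaryocyte and platelet genes, 5 rose and 0 fell, with summed levels of 9.22 to 9.28 against 10.03 to 10.04. Gp1bb rose by 1.69, Ppbp by 1.00, Pf4 by 0.89 and Itga2b by 0.43. The Itga2b call was lost without social threat pool 1 and without social threat pool 2. The other Gp1bb probe set, at 4.26 in controls and so under the array median, was not called (log2 difference 0.17, limma adjusted p = 0.455). Red pulp macrophages clear aged red cells, and 7 of their 10 markers fell and 0 rose, with summed levels of 13.61 to 13.63 against 13.14 to 13.16. Axl fell by 1.19, Hpgd by 0.92, C1qa by 0.60 and Hmox1, the enzyme that opens haem, by 0.52.

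Aqp1 is also made by endothelium, and of 10 endothelial markers 1 rose (Egfl7, by 0.55) and 1 fell (Stab2, by 0.63), shares close to those of all genes (9.4% and 11.7%). The Egfl7 call was lost without social threat pool 1 (adjusted p = 0.129) and without social threat pool 2 (adjusted p = 0.174), and no other Egfl7 probe set was called. The summed level of the endothelial list was 9.59 to 9.71 in controls and 9.36 to 9.44 under social threat. Stab2, the brightest of the list, weighs most in that sum, at 8.31 and 8.25 in controls and 7.63 and 7.67 under social threat. The fall of the sum therefore cannot be read as one of the whole list. The endothelial cadherin gene Cdh5 stood at 4.00 ± 0.06 in both groups (SD, n = 2), below the array median. Plvap and Eng differed by -0.12 and -0.19 and were not called. Myeloid markers were bright in all pools, though the purity of the CD11b+ cells was not tested. All 10 myeloid markers were above the array median in controls. Of these, 5 rose (50%) and 4 fell (40%), against 9.4% and 11.7% of all genes. Their summed levels were 16.170 to 16.196 in controls and 16.270 to 16.285 under social threat. Itgam rose by 0.88 (SE 0.13) from control pools at 10.47 and 11.01, with adjusted p = 0.163 in limma's robust setting, while Adgre1, Cd68 and Csf1r fell by 0.35, 0.34 and 0.26.

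The genes whose profile over the 4 pools was most like the mean of the 8 members were not red cell genes by their known roles. Likeness was the Euclidean distance between log2 values centred on each gene's mean, one brightest probe set a gene. The nearest were Cd177, a neutrophil surface protein, at a distance of 0.05, followed by Smc2, a condensin subunit (0.07), Mapk13, a stress-activated kinase (0.08), Fignl1 (0.08) and Cdca7, a cell cycle gene (0.09). Cd177 rose from 10.86 in each control pool to 12.77 and 12.82, a difference of 1.94 (SE 0.03). With 4 pools in 2 groups, likeness reflects the size of the group difference above all.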

How the data were processed

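Total RNA of CD11b+ splenocytes was pooled from 5 mice per array, per the labels. The authors deposited 1 log2 expression value for each probe set and array. Per the submitters' processing notes these come from RMA, of which no version is named. RMA corrects background, equalises the distributions of arrays and summarises probes. It gives no detection calls, so levels near the array median cannot be separated from background. Arrays have no read depth, and their number limits the precision. Array medians were 4.41 to 4.43, and identical values were shared by at most 0.477% of probe sets between any arrays. Across probe sets, pools of a group correlated at 0.9966 (control) and 0.9981 (social threat), and pools of different groups at 0.9894 to 0.9904 (Pearson's r).

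Gene names came from the platform annotation, where 34945 had 1 gene symbol, 932 several and 9160 none. Of the first, 34741 matched RefSeq genes by Entrez identifier, and 0 symbols changed. No probe set with several symbols included a member. Social threat minus control was fitted in R 4.3.3 with limma 3.58.1 (lmFit, eBayes with a mean-variance trend, 2 residual and 7.14 prior degrees of freedom), two-sided, over all 45037 probe sets. SE and 95% intervals are limma's moderated ones. For 2 pools against 2, an exact permutation test cannot go below p = 0.333 and was not used. Named list genes were up to 4 per list, called genes with the largest absolute difference and then the brightest. The code was tested on simulated data. The members, lists and rules were chosen with earlier results of these data known. Alternatives were no trend, robust moderation, quantile normalization, median centring, a filter on dim probe sets, pool number as a block, leaving out each pool, and gene means. No source used here gives array processing order, so a batch that coincided with the groups and social threat cannot be told apart.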

Additional observations from a re-analysis of the deposited data

How the results depend on the processing

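The 11 member probe sets kept their direction under all alternatives in which they were tested, and 3 of 107 such values crossed the threshold, all of them for Epb42 probe set 1417337_at. The number called higher was 9, or 8 without the variance trend and with the filter on dim probe sets, and 8 to 9 when a pool was left out. The filter removed the uncalled Slc4a1 probe set and those of Epb42. It used the mean over all 4 pools, social threat included. Rhag, Car1 and Hemgn, under the array median in controls, passed it through their social threat values. The filter is therefore no check on their calls. The log2 difference ranged from 3.13 to 3.24 for Slc4a1 (1434502_x_at), 2.67 to 2.92 for Hemgn, 2.07 to 2.28 for Car1, 1.87 to 2.00 for Car2 and 1.71 to 2.05 for Aqp1. Over all probe sets, 7099 calls became 4689 without the trend and 3171 to 8721 when a pool was left out (3171 without social threat pool 2, 3341 without social threat pool 1). The background share of calls moves with them. Deviations of same-numbered pools correlated at r = 0.0519 across probe sets, so pool numbers were not taken to pair the samples. With pool number as a block, 8168 probe sets and 9 member probe sets higher were called. Tested as the mean of a gene's probe sets over 18193 genes, 1 other carbonic anhydrase gene (Car9) was called instead of 0, 5 red cell membrane genes were called higher instead of 7, and Slc4a2 was called among the transporter relatives but Slc4a8 was not. Car9 and Slc4a2 have 1 probe set each, so averaging left their differences unchanged. Their calls came with the smaller SE and fewer tests of that fit. Leaving out a pool gave 0 to 1 called transporter relatives. Of the named genes, Car14, Car7, Aqp12 and Aqp2, all uncalled, changed sign when a pool was left out. Their log2 differences then ranged from -0.202 to 0.057 for Car14, -0.145 to 0.350 for Car7, -0.006 to 0.269 for Aqp12 and -0.181 to 0.116 for Aqp2. The causes of the other changes were not tested. With 2 arrays a group, rises of members that are dim in controls cannot be sized.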
